A study of Rattus norvegicus with 9 samples.

Results

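The insulin-like growth factor binding proteins were followed in rat lung across 4 ways of breathing. Their genes Igfbp1 to Igfbp6, together with Igf1, the ligand they hold, were found as all probe sets (groups of short oligonucleotides for a transcript) that the array annotation gives to them. This gave 15 of the 8740 probe sets without controls, for 6 of the 7 genes; Igfbp4 had no probe set under its name and was not analysed here. Of the 15, 10 were bright enough to be tested: 3 for Igf1, 3 for Igfbp2, 2 for Igfbp3, 1 for Igfbp5 and 1 for Igfbp6.

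Total lung RNA came from rats under spontaneous breathing or mechanical ventilation, with 21% or 100% oxygen for each, and was hybridised to 9 arrays. Every one of the 4 groups had samples lettered a and b. Sample b of mechanical ventilation at 100% oxygen had 2 arrays, which were averaged, so that 8 samples entered the tests. The labels do not tie the letters to separate animals, and p-values therefore cover the spread between samples, which could be technical. The strain, age, ventilator settings and duration are not stated in the labels.

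In background terms, IGF1 acts through the receptor IGF1R, a tyrosine kinase that signals to AKT and mTOR. Most circulating IGF1 is bound by IGFBP3 in a complex with an acid-labile subunit, and proteases release it. In tissue the 6 classical binding proteins can hold IGF1 away from its receptor or keep it near, and IGFBP1 is a liver and decidua product whose gene is repressed by insulin.

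The deposited intensities had 2% trimmed means of 800.5 to 801.1 on the 9 arrays, and 18.4% to 20.01% of probe sets lay at or below 0. The highest of 15 bacterial control probe sets, whose transcripts the rat does not make, read 94.9 to 140.2 on an array, and levels under that are called not above the controls here. The lung markers Sftpc, Ager and Scgb1a1 were above the controls in all groups but were lowest with mechanical ventilation at 100% oxygen. Sftpc, the surfactant protein of alveolar type 2 cells, averaged 12722 with spontaneous breathing of 21% oxygen and 3902 there, and Ager, of type 1 cells, 13680.0 and 5546. The 99th percentile of intensity was 7072 to 8357 on the 3 arrays of that group and 9931 to 14581 on the others. Markers of other tissues also marked off groups, that one included. The liver list (7 of 7 genes named on the array) summed to 3926 to 4458 with mechanical ventilation at 100% oxygen and to 1342 to 3364 elsewhere. The heart muscle list (6 of 6 named) summed to 21443 to 22512 with spontaneous breathing of 100% oxygen and to 10787 to 13667 elsewhere. Its defining marker Myh6 did not follow the sum. Myh6 averaged 328 with spontaneous breathing of 21% oxygen and 410 with 100% oxygen. With mechanical ventilation it averaged 377 at 21% oxygen and 443, its highest, at 100% oxygen. The summed level of the skeletal muscle list (9 of 10 genes named on the array) was 25493 to 26092 with spontaneous breathing of 100% oxygen and 2367 to 7995 in the other samples, and its defining marker Tnnc2, a fast muscle troponin, averaged 3869 against 41.2 to 502. The T lymphocyte list (8 of 9 named) summed to 30424 to 32295 with mechanical ventilation at 21% oxygen and to 1963 to 2899 elsewhere. In that same group Ucp1, the brown fat uncoupling protein, averaged 6213, against 34.5 to 1093 in the others. Krt4, a squamous epithelium keratin, averaged 6557 with spontaneous breathing of 100% oxygen, 1177 with 21% oxygen, and -22.1 and -133 in the mechanical groups. The squamous epithelium list (3 of 5 named) summed to 7204 to 7620 with spontaneous breathing of 100% oxygen and to 1376 to 1883 with 21% oxygen. With mechanical ventilation it summed to 1380 to 1499 at 21% oxygen, where it did not follow Krt4, and to 162 to 634 at 100% oxygen. The part of these tissues in any result below was not tested, and in RNA of whole lung fewer cells of a type and less RNA per cell cannot be told apart.

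In the GRCr8 assembly of RefSeq 4 of the binding protein genes form 2 neighbouring pairs. Igfbp1 (chromosome 14, 86261277 to 86266344, forward strand) and Igfbp3 (chromosome 14, 86270208 to 86277944, reverse strand) end towards each other with 3863 bases and no annotated gene between them. Igfbp2 (chromosome 9, 81864811 to 81892179, forward strand) and Igfbp5 (chromosome 9, 81901605 to 81914187, reverse strand) are likewise 9425 bases apart. Igfbp6 (135154919 to 135159550) and Igf1 (24169608 to 24249446) both lie on the forward strand of chromosome 7, far apart, and Igfbp4 (84491471 to 84503487, forward strand) lies on chromosome 10. The 250 bases before the start of Igfbp3, the member with calls, and of Igfbp1, its neighbour that was not above the controls, are given 5′ to 3′ on the strand of each gene, at chr14:86277945-86278194 on the reverse strand and chr14:86261027-86261276 on the forward strand, with the motif that was found in capitals.
Igfbp3: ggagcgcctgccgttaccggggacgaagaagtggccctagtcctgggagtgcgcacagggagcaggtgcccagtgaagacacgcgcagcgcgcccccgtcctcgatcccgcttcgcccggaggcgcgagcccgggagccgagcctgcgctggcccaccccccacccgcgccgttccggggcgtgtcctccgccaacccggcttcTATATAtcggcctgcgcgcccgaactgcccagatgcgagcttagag
Igfbp1: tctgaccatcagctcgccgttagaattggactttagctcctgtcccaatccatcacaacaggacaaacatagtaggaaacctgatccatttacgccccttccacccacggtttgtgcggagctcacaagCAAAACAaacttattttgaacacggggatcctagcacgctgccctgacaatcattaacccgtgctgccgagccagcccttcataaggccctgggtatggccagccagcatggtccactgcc
The capitals mark TATATA, 46 to 41 bases before the start of Igfbp3, and CAAAACA, 121 to 115 bases before the start of Igfbp1. All 7 members matched a RefSeq promoter. The Igfbp3 stretch had 71.6% G and C and the Igfbp1 stretch 52.8%, with a median of 52% over 27457 rat promoters. On both strands and over windows of the same length, TATATA was present in 5.44% of those promoters and CAAAACA, letters of the insulin response element known from IGFBP1, in 5.46%. Also searched were TATAAA (13.1% of promoters, among members Igfbp4), GGGCGG (32.4%, Igfbp2), ACGTG (16.9%, at 2 places in Igfbp2) and TGANTCA (6.36%, no member), while CAAAACA was also present in Igf1. A match is a description of letters and shows no binding.

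Igfbp3 was the only member gene with calls in the fit reported, and it was brightest in lungs ventilated with 100% oxygen. On the probe set M31837_at the letter a and letter b samples read 678 and 826 with spontaneous breathing of 21% oxygen, 464 and 306 with spontaneous breathing of 100% oxygen, 762 and 437 with mechanical ventilation at 21% oxygen, and 1250.2 and 1524 with mechanical ventilation at 100% oxygen. Both samples of the last group lay above all 6 others, and both samples with spontaneous breathing of 100% oxygen were among the 3 lowest. The group means were 752 ± 105, 385 ± 112, 599 ± 230.1 and 1387 ± 194 (SD, n = 2 each) in that order. By their ranges, spontaneous breathing and mechanical ventilation at 21% oxygen overlapped, as did the groups with spontaneous breathing of 100% oxygen and mechanical ventilation at 21% oxygen.

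**Figure D1:**
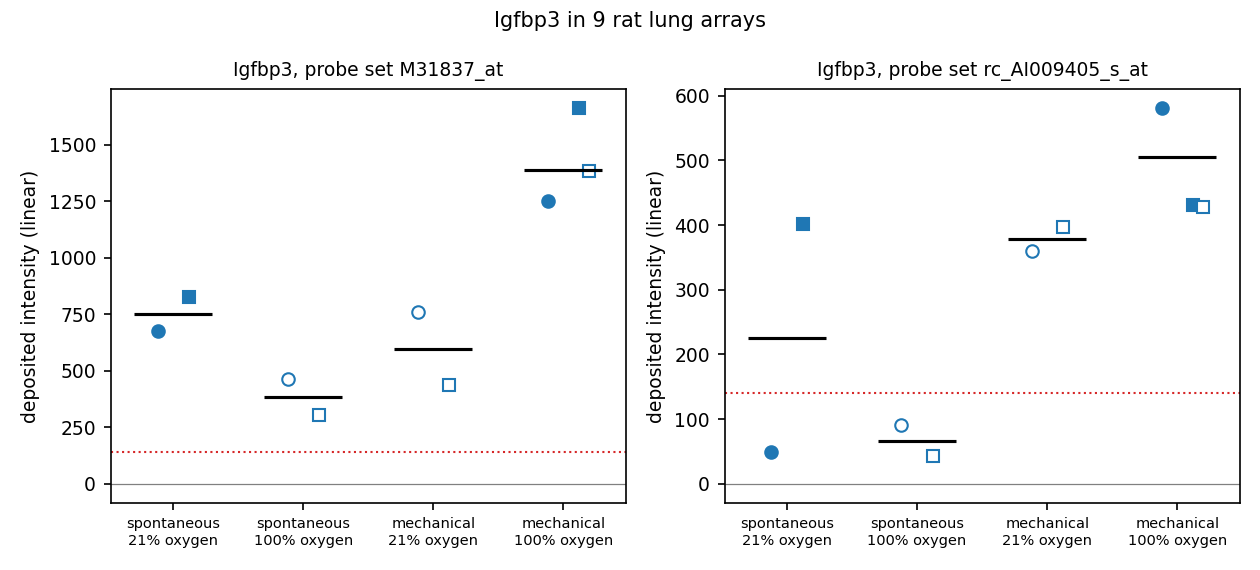
Deposited intensity (linear scale, arbitrary units) of the 2 Igfbp3 probe sets on each of the 9 arrays, by group on the x axis; circles are letter a samples, squares letter b samples, filled symbols arrays whose description holds a lot line, the bar is the group mean over samples, and the red dotted line is the highest bacterial control reading, 140.2. On M31837_at the arrays of mechanical ventilation with 100% oxygen sit between 1250.2 and 1664, above all others, while on rc_AI009405_s_at one sample of spontaneous breathing of 21% oxygen and both of spontaneous breathing of 100% oxygen lie under the line.

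Whether ventilation changed Igfbp3 in rats given 100% oxygen was asked by setting the groups with mechanical and spontaneous breathing at that oxygen level against each other. M31837_at rose by 1.76 ± 0.28 on the log2 scale (SE, 95% interval 1.12 to 2.41, limma adjusted p = 0.0051), and the ratio of mean intensities was 3.60. The second Igfbp3 probe set, rc_AI009405_s_at, read 90.7 and 42.7 with spontaneous breathing and 581 and 429 with mechanical ventilation. It also rose (2.38 ± 0.63, 95% interval 0.92 to 3.83, limma adjusted p = 0.028). Both samples with spontaneous breathing of 100% oxygen lay under the bacterial controls of their arrays. With the highest control reading of each array in their place the fold was 3.75, a point value that leaves out the spread between samples. The rises of both Igfbp3 probe sets were 2 higher and 0 lower calls among the 10 tested probe sets of the members. That comparison called 26.9% of all 5244 probe sets tested. M31837_at passed in all 21 alternatives (1.49 to 2.03, adjusted p up to 0.042), whereas rc_AI009405_s_at passed in 13 of 20 and was lost when any of the 4 samples compared was left out (2.05 to 2.71, adjusted p 0.064 to 0.16).

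With mechanical ventilation, oxygen went with more Igfbp3. M31837_at rose by 1.20 ± 0.28 between 21% and 100% oxygen (95% interval 0.55 to 1.84, limma adjusted p = 0.013), a ratio of mean intensities of 2.31. It was the single call among the 10 members' probe sets, and 35.1% of all probe sets tested were called. The call was lost without the letter b sample of mechanical ventilation at 100% oxygen (1.06, adjusted p = 0.063) and without the letter b sample of mechanical ventilation at 21% oxygen (0.82, adjusted p = 0.079), with adjusted p from 0.0085 to 0.079 over the 21 alternatives. On rc_AI009405_s_at, which read 360.1 and 397 at 21% oxygen, the change was 0.37 ± 0.63 and did not pass (95% interval -1.09 to 1.82, adjusted p = 0.68).

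With spontaneous breathing, oxygen gave lower readings that did not pass. The change of M31837_at was -0.92 ± 0.28 (95% interval -1.56 to -0.27, limma adjusted p = 0.060), with both samples at 100% oxygen under both at 21%. It passed without either sample of mechanical ventilation at 21% oxygen (adjusted p = 0.042 and 0.041), which are not part of that comparison. On rc_AI009405_s_at the change was -0.94 ± 0.63 (95% interval -2.39 to 0.52). The samples at 21% oxygen read 49.8 and 402, and the sign turned with the choice between them: -2.09 without letter a (adjusted p = 0.016) and 0.21 without letter b (adjusted p = 0.74). The value 49.8 and both samples at 100% oxygen lie under the bacterial controls, so these sizes are fitted values and not exact folds. No member passed in either direction, and 2 had an unadjusted p under 0.05, against 16.8% of all probe sets called by limma at the adjusted threshold.

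The difference between these effects, the interaction of ventilation and oxygen, passed for M31837_at with a log2 value of 2.11 ± 0.40 (95% interval 1.20 to 3.03, limma adjusted p = 0.0068). Here the change with oxygen was larger under mechanical ventilation than under spontaneous breathing. It was 1 of the 10 members, beside 27.4% of all probe sets. Leaving out each sample in turn gave 1.74 to 2.49, with an adjusted p of at most 0.029. On rc_AI009405_s_at the interaction was 1.31 ± 0.89 (95% interval -0.75 to 3.36, adjusted p = 0.30), and it ran from 0.16 without letter b of spontaneous breathing of 21% oxygen (adjusted p = 0.83) to 2.46 without letter a (adjusted p = 0.0096).

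At 21% oxygen the effect of ventilation on Igfbp3 did not pass. M31837_at changed by -0.35 ± 0.28 (95% interval -0.999 to 0.30, limma adjusted p = 0.44) and rc_AI009405_s_at by 1.07 ± 0.63 (95% interval -0.38 to 2.52, adjusted p = 0.30), so the signs of the 2 probe sets differed. For rc_AI009405_s_at the fitted value was 2.22 without letter b of spontaneous breathing of 21% oxygen (adjusted p = 0.017), against the lone sample at 49.8, and -0.08 without letter a (adjusted p = 0.92). Without letter b of mechanical ventilation at 21% oxygen M31837_at also turned, to 0.02 (adjusted p = 0.97). No member passed in this comparison, by limma, and none had an unadjusted p under 0.05, where 14.5% of all probe sets were called. Against spontaneous breathing of 21% oxygen, mechanical ventilation with 100% oxygen gave 0.85 ± 0.28 on M31837_at (95% interval 0.20 to 1.49, adjusted p = 0.085) and 1.44 ± 0.63 on rc_AI009405_s_at (95% interval -0.02 to 2.89, adjusted p = 0.18). The latter was 0.29 without letter a of spontaneous breathing of 21% oxygen (adjusted p = 0.67) and 2.59 without letter b (adjusted p = 0.0083). No member passed there either, and 1 had an unadjusted p under 0.05, with 14.5% of all probe sets called. That comparison and the others share groups, so their values are not independent of each other.

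A description line for a lot batch, which gives no lot, stood on both arrays of spontaneous breathing of 21% oxygen, on the letter a array of mechanical ventilation with 100% oxygen and on 1 of the 2 arrays of its letter b sample. It was on no array of the other 2 groups, so with spontaneous breathing the line and oxygen cannot be told apart, nor can the line and ventilation at 21% oxygen. The letter b sample measured with and without it read 1664 and 1383 on M31837_at. A fit with the line as a block took the 9 arrays singly, so the 2 arrays of that letter b sample counted as separate samples. Only mechanical ventilation at 100% oxygen had arrays of both kinds, so the block was estimated within that group alone. In this fit the rise of M31837_at with ventilation at 100% oxygen passed (1.77, limma adjusted p = 0.026). The rise with oxygen under mechanical ventilation (1.20, adjusted p = 0.056) and the interaction (2.06, adjusted p = 0.17) did not. For rc_AI009405_s_at the rise at 100% oxygen became 2.17 with an adjusted p of 0.13.

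Markers of several lung cell types differed between the same groups. The endothelium list (4 of 6 genes named, 3 tested) summed to 10683 to 12341 with spontaneous breathing of 21% oxygen, 5370.0 to 5744 with 100% oxygen, 6019.6 to 6837 with mechanical ventilation at 21% oxygen and 8859 to 9783 at 100% oxygen, so it was highest where Igfbp3 was not. Of its 3 tested genes, 2 rose with ventilation at 100% oxygen and all 3 fell with oxygen under spontaneous breathing. The smooth muscle list (5 of 5 named) summed to 15873 to 17476, 12786 to 12920.3, 14816 to 14930.0 and 14280.3 to 14481 in the same order of groups, and the fibroblast list (6 of 6 named) to 35424 to 36195, 29174 to 33282, 20612 to 23854 and 29888 to 30022. Within these lists, Pdgfra and Myh11 were chosen after their values were seen. Pdgfra, a fibroblast receptor, averaged 3104, 1988, 1699 and 3821, and Myh11, a smooth muscle myosin, 2105, 563, 519 and 2110.3. With ventilation at 100% oxygen 1 of the 6 fibroblast genes was called higher and 0 lower. Of the 5 smooth muscle genes 3 were called higher and 1 lower. With oxygen under mechanical ventilation these counts were 3 higher and 1 lower for fibroblast, and 1 higher and 2 lower for smooth muscle. Of all probe sets 26.9% were called with ventilation at 100% oxygen and 35.1% with oxygen under mechanical ventilation. With oxygen under spontaneous breathing 16.8% were called. The alveolar type 2 list (4 of 5 named) summed to 54362 to 65437, 38066 to 51089, 44506 to 48664 and 27244 to 29866, lowest in the group where Igfbp3 was highest. No defining marker of these 4 lists was at 0 in any group. Their part in the Igfbp3 result was not tested.

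Igf1, the ligand, did not pass in any of the 6 comparisons. On M15481_g_at the samples read 1324 and 1301 with spontaneous breathing of 21% oxygen, 1416 and 1276 with 100% oxygen, 1108 and 1348 with mechanical ventilation at 21% oxygen, and 1473 and 2034 at 100% oxygen. Both samples of the last group lay above the other 6, though the letter a sample by only a small step. The change with oxygen under mechanical ventilation was 0.49 ± 0.18 (95% interval 0.08 to 0.89, limma adjusted p = 0.063), which was 0.72 without that letter a sample (adjusted p = 0.033) and 0.26 without the letter b sample (adjusted p = 0.29). With ventilation at 100% oxygen it was 0.36 ± 0.18 (95% interval -0.05 to 0.76, adjusted p = 0.17).

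The other Igf1 probe sets gave other patterns. M15481_at ranged from 121 to 251 with its largest change at -0.43 ± 0.28, for oxygen with spontaneous breathing (95% interval -1.07 to 0.20, limma adjusted p = 0.31). D00698_s_at ranged from 74.5 to 206, and only 4 of 8 samples were above 140.2, the highest bacterial control reading over all arrays. Its change with ventilation at 100% oxygen was 0.77 ± 0.34 (95% interval -0.02 to 1.56, limma adjusted p = 0.13). X06107_i_at, at -28.4 to 66.9, and X06107_r_at, at -1154 to -284, were not tested, being at or below 0 on 5 and 8 of the 9 arrays. Over the 8 samples the log2 values of the 3 tested Igf1 probe sets had Pearson's r of -0.35, 0.03 and 0.14 with each other, so the sets did not follow 1 common pattern.

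Igfbp2, a binding protein abundant in fetal tissues, was brightest on J04486_at in the group where Igfbp3 was dimmest. Its samples read 929 and 1637 with spontaneous breathing of 21% oxygen, 2019.9 and 2052 with 100% oxygen, 1498 and 1568 with mechanical ventilation at 21% oxygen, and 1215 and 1402 at 100% oxygen. Both samples with spontaneous breathing of 100% oxygen lay above all others, and the 2 samples with 21% oxygen stood far apart. The means were 1283 ± 501, 2036 ± 22.4, 1533 ± 49.0 and 1309 ± 132 (SD, n = 2).

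None of the Igfbp2 differences passed in the fit reported. With oxygen under spontaneous breathing J04486_at changed by 0.70 ± 0.23 (95% interval 0.17 to 1.23, limma adjusted p = 0.072), and with ventilation at 100% oxygen by -0.63 ± 0.23 (95% interval -1.16 to -0.10, adjusted p = 0.081). The interaction was -0.93 ± 0.33 (95% interval -1.68 to -0.18, adjusted p = 0.068), of opposite sign to that of Igfbp3. It passed in 3 of 19 alternatives, among them cyclic loess normalization (-1.10, limma adjusted p = 0.044) and the lowest 60% not tested (adjusted p = 0.049). The change with ventilation at 100% oxygen passed in 3 of 21, among them only the groups compared (limma adjusted p = 0.026). Without the letter b sample of spontaneous breathing of 21% oxygen, the dimmer letter a sample alone stood for that group, and the oxygen change (1.10, adjusted p = 0.0087) and the interaction (-1.32, adjusted p = 0.0055) passed. The same omission made the change with ventilation at 21% oxygen pass (0.70, adjusted p = 0.040). Without the letter a sample these 3 values were 0.31 (adjusted p = 0.24), -0.53 (adjusted p = 0.089) and -0.09 (adjusted p = 0.76).

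The other Igfbp2 probe sets did not share the interaction. A09811cds_s_at read 227 and 338, 366 and 350.4, 232 and 255, and 340.1 and 314 in the same order of groups, with higher readings at 100% oxygen under both ways of breathing. Its changes with oxygen were 0.33 ± 0.22 with spontaneous breathing (95% interval -0.18 to 0.83) and 0.37 ± 0.22 with mechanical ventilation (95% interval -0.13 to 0.87), with limma adjusted p of 0.34 and 0.22. M91595exon_s_at ranged from 247 to 587, and its interaction was -0.02 ± 0.43 (95% interval -1.01 to 0.98).

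Igfbp6, which prefers IGF2 over IGF1, had a narrow range on M69055_at. Its samples read 1288 and 1609 with spontaneous breathing of 21% oxygen, 1547 and 1652 with 100% oxygen, 1217 and 1284 with mechanical ventilation at 21% oxygen, and 1337 and 1200.2 at 100% oxygen. At each oxygen level both mechanical samples lay under both spontaneous ones. The change with ventilation was -0.20 ± 0.14 at 21% oxygen (95% interval -0.53 to 0.13, limma adjusted p = 0.40) and -0.33 ± 0.14 at 100% oxygen (95% interval -0.66 to 0.00, adjusted p = 0.13). The latter passed after quantile (-0.51, adjusted p = 0.044) and cyclic loess normalization (-0.52, adjusted p = 0.046), which bring the median change of all probe sets from 0.13 close to 0.

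Igfbp5, which binds to extracellular matrix and is known from fibrosis, had 1 tested probe set. On rc_AI029920_s_at the samples read 223 and 167 with spontaneous breathing of 21% oxygen, 229 and 329.9 with 100% oxygen, 211 and 225 with mechanical ventilation at 21% oxygen, and 279.9 and 162 at 100% oxygen. Both samples with spontaneous breathing of 100% oxygen lay above those of the 21% groups, and mechanical ventilation at 100% oxygen spanned most of the range. Its largest change within a factor was 0.44 ± 0.30, for oxygen with spontaneous breathing (95% interval -0.25 to 1.12, limma adjusted p = 0.35). The probe sets M62781_at and rc_AI070577_at were at or below 0 on all 9 arrays and were not tested.

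Igfbp1 was not above the controls on any array. M58634_at read 3.04 and -29.7 with spontaneous breathing of 21% oxygen, -68.2 and -60.9 with 100% oxygen, 76.8 and 50.2 with mechanical ventilation at 21% oxygen, and -14.0 and -45.9 at 100% oxygen. The 2 samples of mechanical ventilation at 21% oxygen were the highest, and 6 of the 9 arrays were at or below 0. It was not tested in the fit reported. With no filter on brightness it was called for ventilation at 21% oxygen (limma adjusted p = 0.013) and with oxygen under mechanical ventilation (adjusted p = 0.0065) and in the interaction (adjusted p = 0.016), and no fold is given since both sides lie under the bacterial controls.

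**Figure D2:**
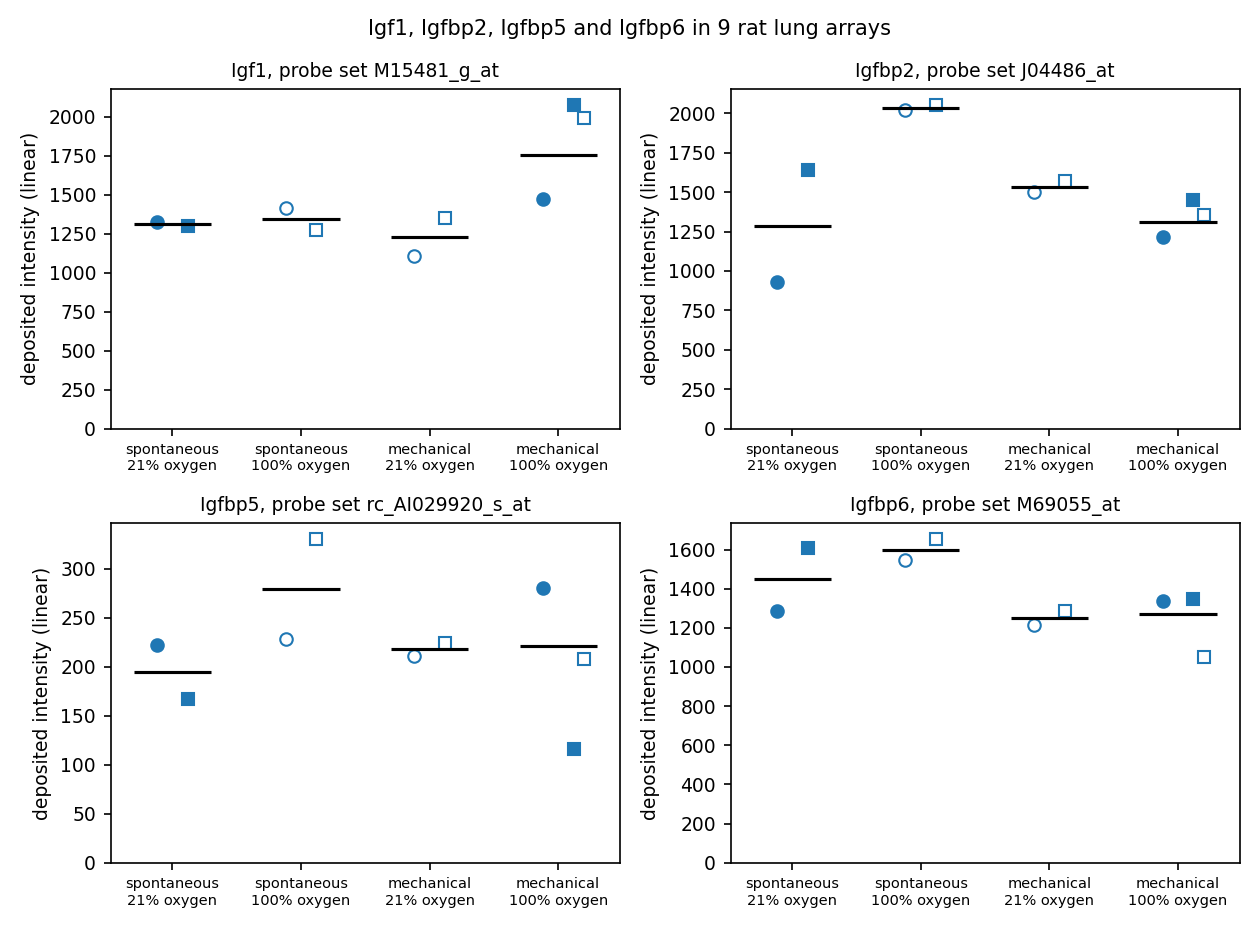
Deposited intensity (linear scale, arbitrary units) of probe sets of Igf1, Igfbp2, Igfbp5 and Igfbp6 on each array, by group on the x axis. Circles are letter a samples, squares letter b samples, filled symbols arrays with the lot line, and bars group means. On Igfbp2 J04486_at the samples with spontaneous breathing of 100% oxygen, 2019.9 and 2052, sit above the rest. On Igf1 M15481_g_at the arrays of mechanical ventilation at 100% oxygen, from 1473 to 2075, also sit above the rest.

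The members were read against all probe sets by counts and medians. The median log2 change of the 10 tested probe sets was -0.07 for ventilation at 21% oxygen, 0.04 at 100% oxygen, -0.01 for oxygen with spontaneous breathing, 0.12 with mechanical ventilation, 0.14 for the interaction and 0.16 for both factors. Over all probe sets tested these medians were -0.06, 0.13, -0.05, 0.14, 0.15 and 0.10 in the same order. The median size of change, without regard to sign, was 0.23 for members and 0.44 for all probe sets with oxygen under mechanical ventilation, and 0.40 and 0.38 with ventilation at 100% oxygen. In the latter comparison the samples of the 2 groups did not overlap on 4 higher and 4 lower member probe sets, and with 2 samples a group 65.69% of all probe sets did not overlap.

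**Figure D3:**
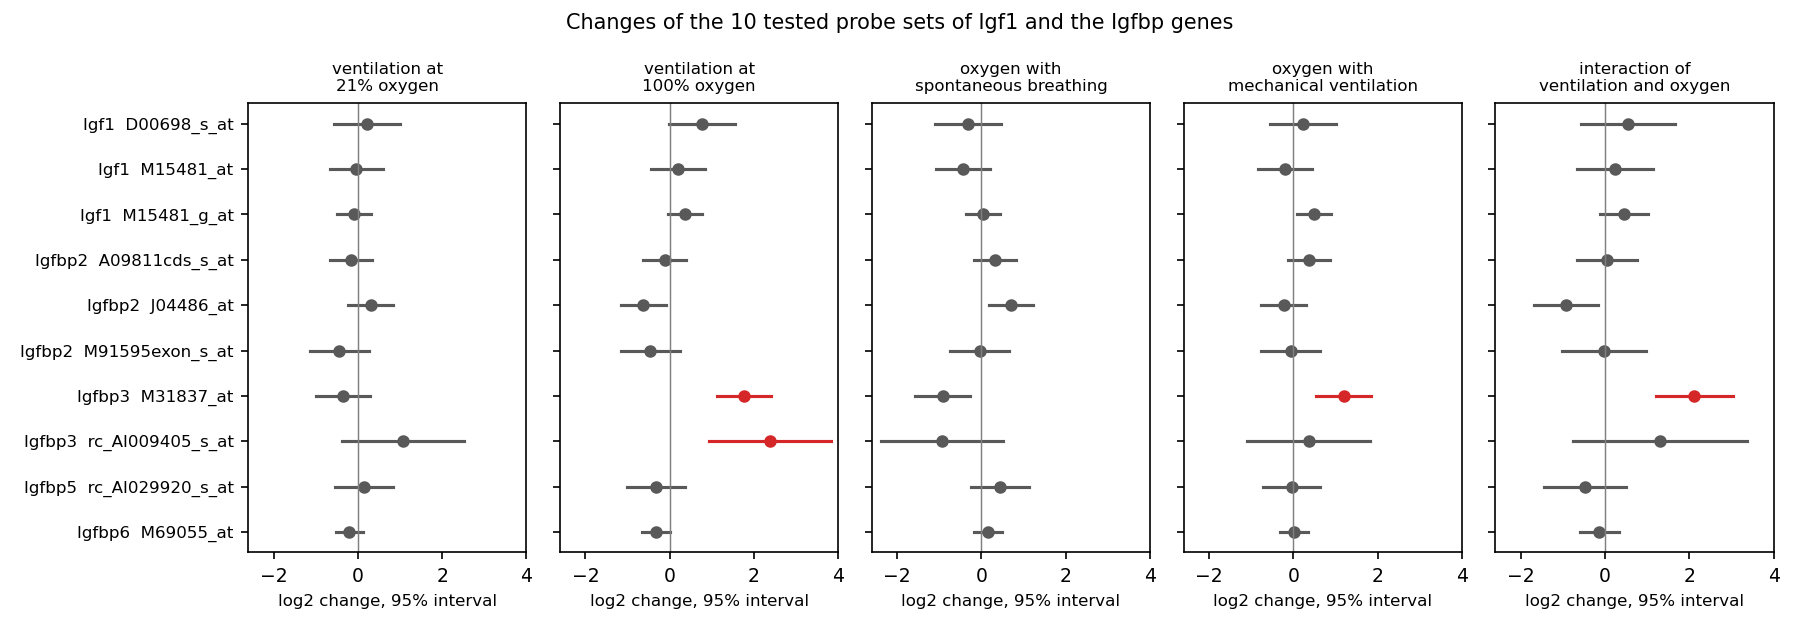
Change on the log2(intensity + 40) scale with 95% intervals for the 10 tested probe sets of Igf1 and the binding proteins, 1 panel per comparison. The vertical line marks 0. Red points and intervals have a limma adjusted p under 0.05, and the others are grey. Red points are seen for Igfbp3 alone, M31837_at at 1.76, 1.20 and 2.11 and rc_AI009405_s_at at 2.38.

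Members did not move as a block. Across the 8 samples, which share groups and arrays, Igfbp3 M31837_at had Pearson's r of 0.67 with the other Igfbp3 probe set, 0.58 with Igf1 M15481_g_at, -0.55 with Igfbp2 J04486_at, -0.57 with Igfbp5 and -0.56 with Igfbp6. Igfbp2 J04486_at and Igfbp6 had an r of 0.64. The neighbours Igfbp2 and Igfbp5 had an r of 0.19.

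The genes whose log2 values were most like each member's were sought among 3181 genes, over the same 8 samples. For Igfbp3 M31837_at these were Alg10, a glucosyltransferase of the glycan precursor (r = 0.97), Dync1i2, a dynein intermediate chain (0.96), and Klf9, a transcription factor induced by glucocorticoids (0.95), which averaged 4175, 2735, 3132 and 5681 in the 4 groups. For Igf1 M15481_g_at they were Samd4b (0.96), the glypican Gpc1 (0.96) and Arhgap25 (0.95). For Igfbp2 J04486_at they were the glycolytic Pkm (0.97), the chromatin protein Hmga1 (0.93) and Adissp (0.93). Igfbp5 was nearest to Cnmd (0.94), Kcnj10 (0.93) and Ache (0.91), and Igfbp6 to Ly86 (0.90), Adcy3 (0.88) and Crmp1 (0.88). With so many genes and 8 samples high values of r are found for any profile, and no test is attached.

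Of 79 other genes of the pathway listed (ligands, receptors, adaptors, proteases, signalling and regulators of binding protein genes), 56 had a named probe set and 44 were tested. With oxygen under mechanical ventilation 13 rose and 1 fell, and with ventilation at 100% oxygen 9 rose and 0 fell. With oxygen under spontaneous breathing 1 rose and 5 fell, with ventilation at 21% oxygen 0 rose and 1 fell, and the interaction was positive in 9 and negative in 0. For mechanical ventilation with 100% oxygen against spontaneous breathing of 21% oxygen 3 rose and 0 fell. In the order given, 31.8%, 20.5%, 13.6%, 2.27%, 20.5% and 6.82% of the list were called, each below the share of all probe sets, which was 35.1%, 26.9%, 16.8%, 14.5%, 27.4% and 14.5%. The list's median changes were 0.46 and 0.32 for the first 2 of these comparisons, against 0.14 and 0.13 for all probe sets. After quantile normalization, which brings the median of all probe sets to 0.01 and -0.01, the counts were 9 higher and 3 lower with oxygen under mechanical ventilation and 2 higher and 0 lower with ventilation at 100% oxygen, and 2 higher and 3 lower in the last comparison named. They were 0 higher and 3 lower with ventilation at 21% oxygen and 5 positive and 0 negative for the interaction. Cyclic loess normalization gave 7 higher and 1 lower, 4 higher and 0 lower, and 2 higher and 1 lower in these comparisons, 1 higher and 1 lower with ventilation at 21% oxygen, and 5 positive and 0 negative for the interaction. In that order 32%, 21.4%, 12.8%, 14.5% and 26.6% of all probe sets were called after quantile normalization. After cyclic loess normalization these shares were 30.5%, 19.6%, 12.6%, 15.7% and 25.5%.

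Among receptors and adaptors (9 tested), 4 rose with oxygen under mechanical ventilation and 3 with ventilation at 100% oxygen, and 0 fell. After quantile normalization these counts were 3 higher and 1 lower and 0 in either direction, and after cyclic loess normalization 3 and 1 higher and 0 lower. Of all probe sets 35.1% and 26.9% were called in these comparisons, 32% and 21.4% after quantile and 30.5% and 19.6% after cyclic loess normalization. Insrr, the receptor related to the insulin receptor, rose by 0.94 ± 0.16 with oxygen under mechanical ventilation (limma adjusted p = 0.0042), from 714 and 553 to 1336 and 1157. Igf1r, the IGF1 receptor, read 126 and 162 with spontaneous breathing of 21% oxygen and 283 and 339.6 with mechanical ventilation at 100% oxygen. It rose between these groups by 0.90 ± 0.25 (adjusted p = 0.049), and the call was lost when any 1 of the 8 samples was left out (0.76 to 1.04). Ptpn1, a phosphatase of the insulin receptor, fell by 0.61 on the log2 scale with oxygen under spontaneous breathing (SE 0.13, adjusted p = 0.019), a call that remained in 5 of 8 such omissions.

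Among the 14 tested signalling genes Mtor, the kinase downstream of AKT, was called in 5 of the 6 comparisons. It read 513 and 527 with spontaneous breathing of 21% oxygen, 240.2 and 256 with 100% oxygen, 256 and 213 with mechanical ventilation at 21% oxygen, and 449.9 and 398 at 100% oxygen. The groups with neither or both of ventilation and oxygen lay above those with 1 of them, with no overlap. It fell with ventilation at 21% oxygen (log2 change -1.04 ± 0.18, limma adjusted p = 0.010) and with oxygen under spontaneous breathing (-0.96 ± 0.18, adjusted p = 0.013), and rose with ventilation at 100% oxygen (0.69 ± 0.18, adjusted p = 0.028). The interaction was 1.72 ± 0.26 (adjusted p = 0.0027) and passed in all 8 omissions, whereas the rise at 100% oxygen passed in 4 of 8 and neither after quantile (0.50, adjusted p = 0.076) nor cyclic loess normalization (0.45, adjusted p = 0.10).

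Among the 7 tested regulators of binding protein genes, 3 rose with ventilation at 100% oxygen, and 2 after quantile or cyclic loess normalization. Of all probe sets 26.9% were called in that comparison, 21.4% after quantile and 19.6% after cyclic loess normalization. Cebpb, a transcription factor of acute responses, read 4966 and 4378 with spontaneous breathing of 21% oxygen, 4763 and 4099 with 100% oxygen, 3868 and 3732 with mechanical ventilation at 21% oxygen, and 7561 and 7311 at 100% oxygen, so the last group stood clear of the others. It rose by 0.96 ± 0.12 with oxygen under mechanical ventilation (limma adjusted p = 0.0013) and by 0.75 ± 0.12 with ventilation at 100% oxygen (adjusted p = 0.0056), and both calls passed in all 8 omissions. Hif1a, the oxygen-regulated transcription factor, rose by 0.95 ± 0.21 (adjusted p = 0.0098) and 0.85 ± 0.21 (adjusted p = 0.021) in the same comparisons, the second of which was lost after quantile normalization (0.66, adjusted p = 0.052) and in 3 of 8 omissions. Sgk1, a kinase induced by glucocorticoids, read 2398 and 2536 with spontaneous breathing of 21% oxygen and 1469.5 and 1216 with 100% oxygen, a fall of 0.86 on the log2 scale (log2 change -0.86 ± 0.14, adjusted p = 0.0061) that passed in all 8 omissions. Ddit3, a stress-induced transcription factor, rose by 0.73 ± 0.15 in that comparison (adjusted p = 0.016), and the call remained in 5 of 8 omissions.

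With the lot line as a block over the 9 arrays taken singly, the rises of Cebpb and Insrr with oxygen under mechanical ventilation passed (0.98, adjusted p = 0.0057, and 0.87, adjusted p = 0.026, by limma). The interactions of Mtor (1.42, adjusted p = 0.13), Cebpb (1.11, adjusted p = 0.090) and Sgk1 (0.77, adjusted p = 0.26) did not, nor did the falls of Mtor (-0.79, adjusted p = 0.17) and Sgk1 (-0.75, adjusted p = 0.11) with oxygen under spontaneous breathing. Also lost were the rises of Hif1a with oxygen under mechanical ventilation (0.86, limma adjusted p = 0.054) and with ventilation at 100% oxygen (0.76, adjusted p = 0.10). With oxygen under spontaneous breathing the calls of Ddit3 (0.78, limma adjusted p = 0.13) and Ptpn1 (-0.73, adjusted p = 0.11) were lost. Calls over all probe sets were fewer too with the block, at 2.31% for oxygen with spontaneous breathing and 2.88% for the interaction. They were 17.1% for oxygen under mechanical ventilation and 8.96% for ventilation at 100% oxygen.

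**Figure D4:**
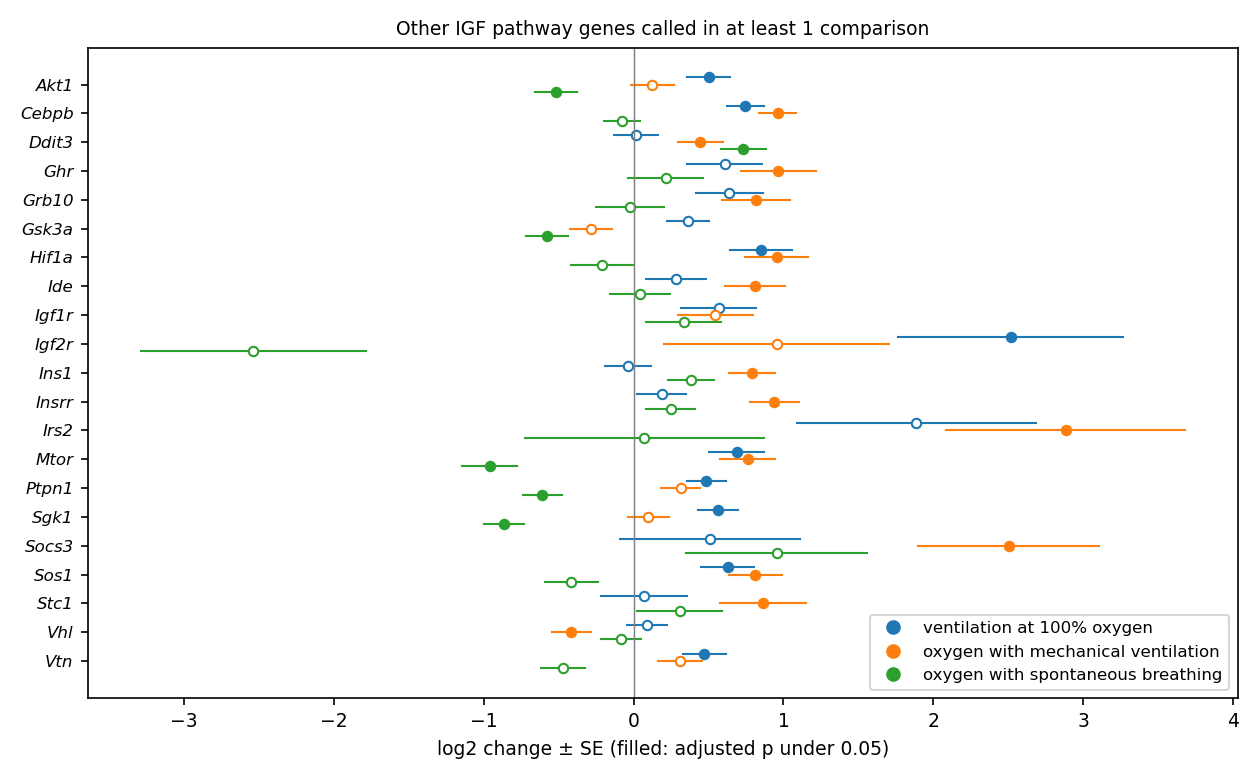
Log2 change ± SE of the pathway genes called in at least 1 comparison, for ventilation at 100% oxygen (blue), oxygen with mechanical ventilation (orange) and oxygen with spontaneous breathing (green); filled points have an adjusted p under 0.05. Most blue and orange points lie right of 0, as Cebpb at 0.75 and 0.96, and the green points of Mtor and Sgk1 lie left of it, at -0.96 and -0.86.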

How the data were processed

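The authors deposited intensities on a linear scale, partly below 0, for 9 arrays of rat lung RNA; common trimmed means were read from the values, and the software that made them is not given in the sources used here. Groups and letters came from the titles. Control probe sets (59) were left out, values under 0 were set to 0, and log2(intensity + 40) was taken, which understates changes of dim genes. The dimmest 40% by mean log2 value were left untested. A group-means model over 8 samples (4 residual degrees of freedom) was fitted by limma (version 3.58.1, R 4.3.3, eBayes with trend), with Benjamini-Hochberg adjustment over 5244 probe sets per comparison and calls at an adjusted p under 0.05. Levels are means of intensities, not of logs. The fit was tested on simulated data with independent noise and no effect of lot or tissue, so that test does not cover such effects. Figures used matplotlib 3.10.9 in Python 3.11.15.

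Every member probe set is reported. Pathway genes (brightest probe set each) were named where they passed, up to 4 of smallest p per comparison, and for likeness the 3 genes of highest r per member. Members and lists were chosen with earlier results of these data known. By annotation 7006 probe sets had 1 symbol, 308 had several and 1426 had none; 6985 symbols matched the reference by gene number. Alternatives were other normalizations, offsets of 8 and 80, no filter or a filter of 60%, blocks by letter or lot line, only the groups compared, each sample left out, and, added after the data were seen, only arrays with or without the lot line.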

Additional observations from a re-analysis of the deposited data

Results flagged for a closer look

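The interaction of ventilation and oxygen on Igfbp3 M31837_at was 2.11 on the log2 scale. The change with oxygen was 1.20 under mechanical ventilation and -0.92 under spontaneous breathing, and the test of their difference passed (limma adjusted p = 0.0068). It was lost with the lot line as a block (2.06, adjusted p = 0.17) and with no filter on brightness (adjusted p = 0.051).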

How the results depend on the processing

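Of 60 changes of single probe sets, compared 1190 times with an alternative, 1156 kept their side of the threshold, and 14 lost and 20 gained a call. The sign turned in 66, over 28 of the changes, none of them called on either side. The count of called member probe sets moved in 25 of 122 comparisons. With no filter on brightness it became 1 for ventilation at 21% oxygen (Igfbp1) and 1 for ventilation at 100% oxygen. Of all probe sets 5.61% and 9.11% were called there. With the lowest 60% not tested, which left 5 member probe sets, it was 1 for ventilation at 100% oxygen, 1 for oxygen with spontaneous breathing and 2 for the interaction, which was also 2 after cyclic loess normalization. With that filter 35.7%, 25% and 35.9% of all probe sets tested were called in these comparisons. After cyclic loess normalization 25.5% were called for the interaction. With the lot line as a block the member count was 1 for ventilation at 100% oxygen, 0 for oxygen with mechanical ventilation and 0 for the interaction. The shares of all probe sets called were 8.96%, 17.1% and 2.88%. With only the groups compared the member count was 1 for both factors against spontaneous breathing of 21% oxygen (Igfbp3 M31837_at, limma adjusted p = 0.047). That fit called 9.59% of all probe sets. Leaving out each sample in turn gave 0 to 2 for ventilation at 21% oxygen, 1 to 3 at 100% oxygen, 0 to 1 for oxygen with spontaneous breathing, 0 to 2 with mechanical ventilation, 1 to 2 for the interaction and 0 to 1 for both factors. The correlations between groups of the letter a samples' deviations from their group means ran from -0.13 to 0.07. They showed no strong shared effect of the letter. They cannot tell whether the letters pair animals or runs. With the letter as a replicate block the counts were 0, 2, 0, 1, 1 and 0 in that order, as without it. The block by letter called 11.2%, 23.1%, 12.7%, 31.7%, 24.1% and 12.2% of all probe sets. Only arrays without the lot line gave 2 calls for ventilation at 100% oxygen, but there mechanical ventilation at 100% oxygen is 1 array, assumed to vary like the other groups, as is any lone sample left by an omission. By limma 0 members were called against spontaneous breathing of 21% oxygen among arrays with it. The number of arrays limits precision, and dim probe sets near the bacterial controls carry the widest intervals.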
